A study of Drosophila melanogaster with 10 samples.

Results

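The genes described here are 48 Drosophila melanogaster genes that carried only a CG number as a symbol and whose signal in the wing imaginal disc fell over the third larval instar. They were picked on measured values. The mean of both libraries had to fall in the order 6, 25, 35 and 48 h after the molt, the lower 6 h library had to reach 50 and be at least 4 times the higher 48 h library, and the 25 h mean had to be at least 50% of the 6 h mean. In addition, replicate A at 15 h was not allowed above the higher 6 h library. Of the 13041 genes of the deposited table, 5913 had a CG symbol and 48 of those met every condition. A further 54 genes with another symbol met the same conditions.

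Wing discs of the genotype yw, with no other allele or treatment given, were sampled at 6, 15, 25, 35 and 48 h after the molt into the third instar, the last from wandering larvae. RNA of 2 libraries per time, named A and B, was sequenced (10 libraries, 16814685 to 38003104 reads in genes). Every value below is a signal, the authors' read count of a gene divided by 1 size factor per library, so that 1 read was worth 0.596 to 1.40. The labels do not say whether A and B came from separate cultures, and p-values therefore measure only the spread between these libraries. In bulk tissue, fewer cells of a type and less RNA per cell cannot be told apart.

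The wing imaginal disc is a sac of epithelium inside the larva that grows through the third instar and everts at metamorphosis to form the wing and part of the thorax. Myoblasts, tracheal branches and attached blood cells come with it, and pieces of fat body can adhere during dissection. A CG number is the serial name that the fly genome annotation gives to a computed gene, and it stands until someone studies and names the gene. Such a number carries no information on function. For 5 of the 48 the Ensembl annotation has since replaced it: CG1673 is now Bcat, CG4335 Tmlh, CG18003 Hao, CG11073 flap and CG9572 aspr. Bcat, Tmlh and Hao are named after mammalian enzymes of branched-chain amino acid breakdown, carnitine synthesis and hydroxy acid oxidation. The RefSeq gene table lists SPH250, SPH201 and SPH121, names of serine protease homologues, as synonyms of CG43125, CG34437 and CG8738, and Chac1, the name of a mammalian glutathione-degrading enzyme, for CG10365. No role is given for the others.

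The 48 genes were expressed at middling levels at the start. Their 6 h means ran from 95.3 to 7905 with a median of 658. The median of the time means was 204 at 15 h, stood at 439 at 25 h, and ended at 65.2 at 35 h and 30.6 at 48 h. As a share of its own 6 h mean, the median gene stood at 65.6% at 25 h, 6.56% at 35 h and 4.04% at 48 h. The rule fixed the order of 4 of these 5 times, so the decline from 6 h to 48 h is how the genes were found and not a result about them.

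**Figure D1:**
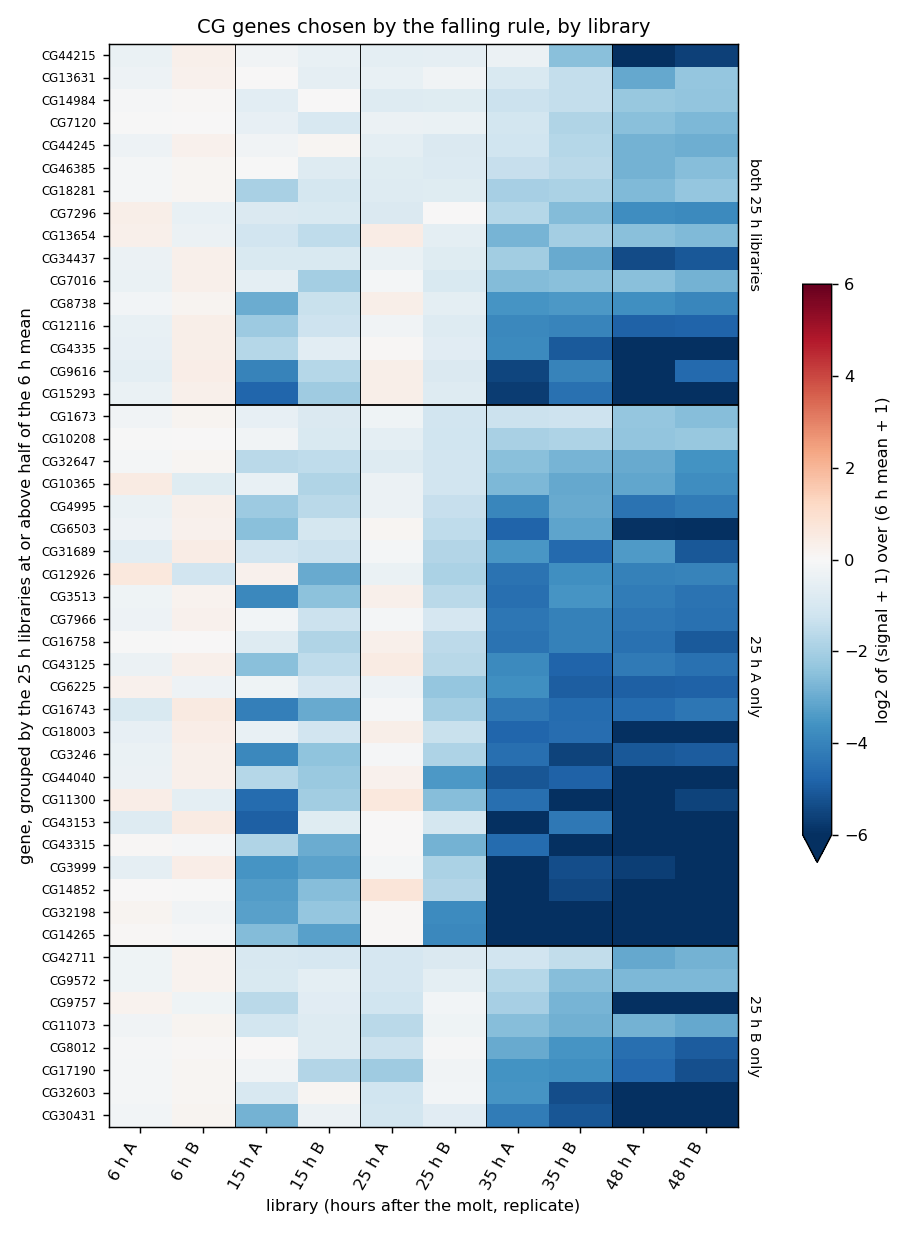
Log2 of (signal + 1) over (6 h mean + 1) for the 48 genes (lines) in the 10 libraries (columns), grouped by which 25 h library reached 50% of the 6 h mean and ordered within a group by the 35 h level; values under -6 share the darkest blue. The 15 h columns are darker than at least 1 of the 25 h columns in most lines, and the step to the 35 h columns is the sharpest.

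The genes had been described as falling gradually, but the 5 time means stood in the order 6, 15, 25, 35 and 48 h in 12 of the 48 (25%), against 6.26% of the genes tested; the rule itself fixed the order of 4 of those times. In 36 of the 48 (75%) the 15 h mean lay below the 25 h mean, against 49.6% of the genes tested. Among the 54 genes with another symbol it did so in 68.5%. The rule bore on this count, since it capped 15 h A and set a minimum for the 25 h mean. The largest step between successive times of the rule, on the log2 scale, was from 25 to 35 h in 37 genes and from 35 to 48 h in 11, and in none was it from 6 to 25 h, a step that the 25 h limit of the rule held to at most 1 on that scale. In 25 of 48 the 48 h mean was still more than 50% of the 35 h mean. The libraries of 6, 25, 35 and 48 h lay fully apart and in order in 15 genes (31.3%), against 6.00% of the genes tested and 37.0% of the 54 genes with another symbol; the rule required the order of the means but not that the libraries be apart.

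CG12116 had the highest 6 h mean of the 48, a 15 h mean below its 25 h mean and its largest step from 25 to 35 h. Its signal in A and B was 5851 and 9959 at 6 h, 1759.5 and 3350.2 at 15 h, 6894 and 4588 at 25 h, 542 and 515 at 35 h, then 269 and 281 at 48 h. Both 15 h libraries were below both 25 h libraries, and 25 h A lay between the 6 h libraries. From 25 to 35 h the change was -3.41 on the log2(signal + 1) scale (SE 0.37, limma), a contrast the rule used. CG12116 (FBgn0030041) is a single-exon gene at X 8467443 to 8469012 on the minus strand (dm6), and it overlaps CG33223 on the same strand, so the values can include reads of that gene.

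CG3999 (3R 10251518 to 10255268, plus strand) stood lower at 15 h. It measured 3798 and 7069.9 at 6 h, 459.8 and 583 at 15 h, 5041 and 1456 at 25 h, 76.5 and 133 at 35 h, then 106 and 64.9 at 48 h. Both 15 h libraries were under both 25 h libraries, and the 35 and 48 h libraries overlapped. CG16758 (3L 2499372 to 2503606, minus strand) stood at 4837 and 4943 at 6 h, 2894 and 1403 at 15 h, 6039 and 1662 at 25 h, 229.5 and 289 at 35 h, then 219 and 147 at 48 h. Its 25 h A value exceeded both 6 h libraries while 25 h B was near 15 h B. The later times were far below either.

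CG18003, now Hao (2R 10883547 to 10884936, plus strand), had 1593 and 2953 at 6 h, 1646 and 1023 at 15 h, 2909 and 894 at 25 h, 83.2 and 94.2 at 35 h, then 34.1 and 28.6 at 48 h. The 25 h pair spanned the 15 h pair, and no library after 25 h came near them. CG4335, now Tmlh (3R 20406615 to 20407871, minus strand), went from 512 and 911 at 6 h through 214 and 463 at 15 h to 749.6 and 447 at 25 h, then 49.7 and 20.6 at 35 h, then 3.34 and 7.15 at 48 h. It overlaps Gfrl on the same strand. CG3246 (2L 3460322 to 3461952, minus strand) measured 1739 and 2893, 158 and 429.9, 2224 and 634, 99.3 and 47.7, and 66.2 and 72.7 at the successive times, with both 15 h libraries under both 25 h libraries and the 48 h pair between the 35 h pair.

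In CG44245 and CG46385 the 15 h mean was not below the 25 h mean. CG44245 (2R 21200483 to 21212969, plus strand), which overlaps another annotated gene on its strand, measured 3696 and 5571 at 6 h, 4058 and 5025 at 15 h, 3074 and 2546 at 25 h, 2023 and 1393 at 35 h, then 642 and 604 at 48 h. The 15 h pair lay within the 6 h pair, and each later pair was apart from the one before. CG46385 (2R 7737019 to 7782637, minus strand) had 5257 and 6094 at 6 h, 5612 and 3279 at 15 h, 3443 and 3191 at 25 h, 2179.6 and 1828 at 35 h, then 806 and 981 at 48 h. Its 15 h libraries differed from each other by more than the 25 h libraries did. CG1673, now Bcat (X 13396899 to 13401224, plus strand), stood at 4759 and 6169, 3879.9 and 3013, 4565 and 2429, 2249 and 2312, and 1110.4 and 935 at the successive times, the 15 h pair lying within the 25 h pair and its mean just below the 25 h mean. It had the third smallest ratio of 6 h to 48 h mean, 5.34, after CG14984 at 4.97 and CG10208 at 5.06, and before CG18281 at 5.73 and CG13654 at 6.02.

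The remaining genes among the 10 with the highest 6 h means were CG7966 and CG7296. CG7966 (3R 13049398 to 13051453, minus strand) read 3064 and 4526 in A and B at the first time, 3393 and 1532 at 15 h, 3466 and 1881 at 25 h, 189 and 229.6 at 35 h, then 189.9 and 167 at the last. Its levels changed by -3.61 (log2, SE 0.43) between 25 and 35 h, again a contrast the rule used, and the 35 and 48 h pairs overlapped. CG7296 (2L 10686124 to 10687066, minus strand) read 3457 and 1955, 1494 and 1417, 1463 and 2782, 837 and 439, then 201 and 191 over the same times. Here 25 h B was above 6 h B, and the 15 h libraries were nearly equal.

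In 3 genes the 25 h mean was 97.0% or more of the 6 h mean. CG13654 (3R 25199818 to 25214255, plus strand) had 636 and 399 at 6 h, stood at 232 and 182 at 15 h, then had 695 and 339 at 25 h. CG8738, listed as a serine protease homologue (2R 8696428 to 8698583, plus strand), had 235 and 289.6 at 6 h, 32.1 and 103 at 15 h, then 338 and 175 at 25 h. CG14852 (3R 14565927 to 14566513, plus strand), with a single exon, had 158 and 153 at 6 h, 14.1 and 25.8 at 15 h, then 257 and 45.5 at 25 h. In all 3 the 15 h libraries were below both 6 h and both 25 h libraries, and 25 h A was above both 6 h libraries. At 35 h they stood at 73.8 and 124, 21.5 and 23.2, and 1.34 and 2.58.

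CG14984, CG10208 and CG18281 had some of the smallest ratios of the 6 h to the 48 h mean. CG14984 (3L 3951193 to 3952550, minus strand) read 1639 and 1803 at 6 h, 1128 and 1738 at 15 h, 1022 and 1044 at 25 h, 713 and 648 at 35 h, then 359.7 and 332 at 48 h. CG10208 (3R 23772998 to 23774127, minus strand) read 720.1 and 731, 637 and 385, 479 and 321, 191 and 199, then 138 and 149. CG18281 (3L 20499836 to 20501500, plus strand), which overlaps CG32425 on its strand, read 295 and 354, 82.2 and 156, 189.5 and 197, 81.9 and 86.4, then 50.1 and 63.2. In CG14984 and CG10208 the pairs of 6, 25, 35 and 48 h did not overlap, and the same held for CG18281, in which the 15 h pair was below the 25 h pair.

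**Figure D2:**
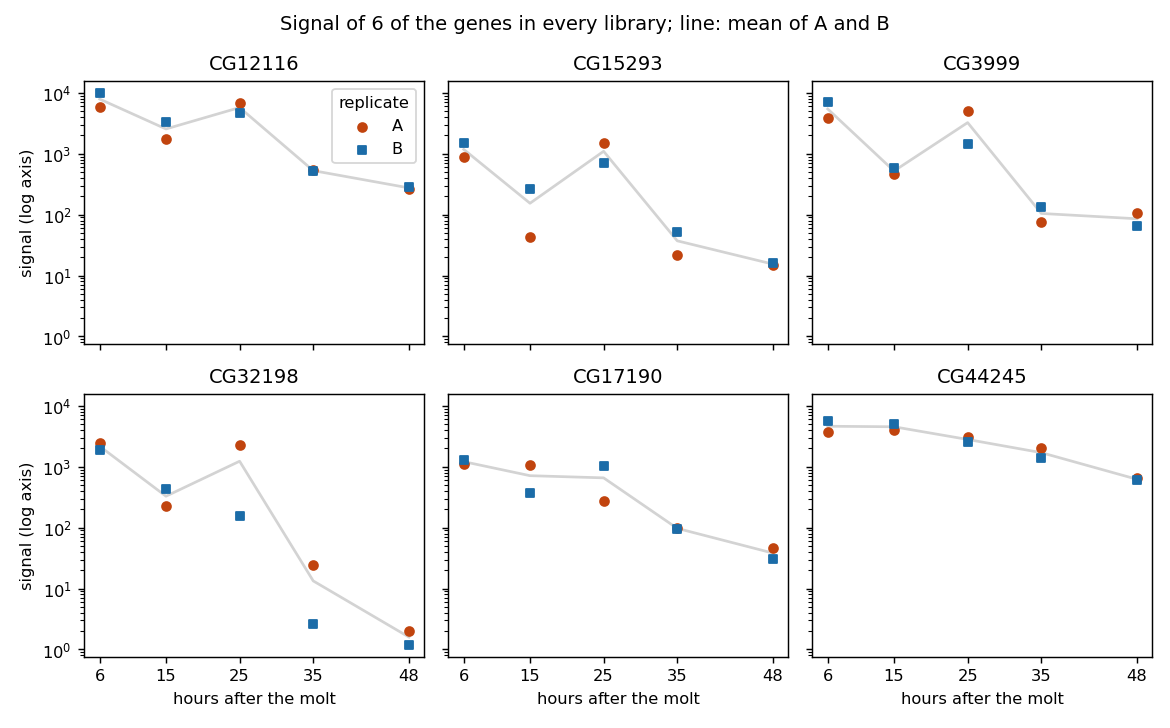
Signal on a log axis against hours after the molt for 6 of the genes (CG12116, CG15293, CG3999, CG32198, CG17190 and CG44245); red circles are replicate A, blue squares replicate B, and the grey line is their mean. CG15293 and CG17190 were chosen for the plot after their values were seen, to show a deep 15 h dip and a 25 h mean that replicate B carries.

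The 25 h condition was met in different ways. In 16 genes each of the 25 h libraries reached 50% of the 6 h mean, in 24 only 25 h A did, and in 8 only 25 h B did. These sets were made after the values were seen and are described without a test. Over the 48 genes, 25 h A had a median of 85.4% of the 6 h mean and 25 h B 51.0%. The signal in A was above that in B in 35 genes (72.9%), against 52.3% of the genes tested. It was at least 2 times as high in 22 of 48 (45.8%), against 10.6% of the genes tested. Among the 54 genes with another symbol these shares were 77.8% and 42.6%. The reverse, B at least 2 times A, held in 5 (10.4%), against 5.23% of the genes tested and 5.56% of those 54. The limit on the 25 h mean let in genes that were high in a single 25 h library, so these shares are not independent of the rule.

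**Figure D3:**
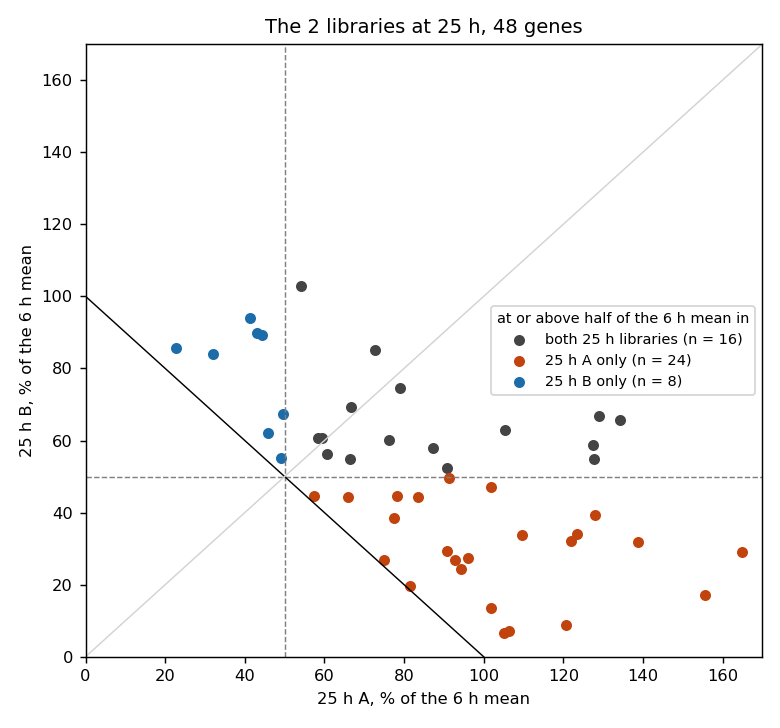
Signal in 25 h A (horizontal) and 25 h B (vertical) as a percent of the 6 h mean, 1 point per gene; dashed lines mark 50% in each library, the black line a mean of 50% and the grey line equal values. The 24 red genes pass on 25 h A alone, and 2 of them, CG14265 and CG32198, had 6.68% and 7.23% in 25 h B.

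Among the 24 genes that passed on 25 h A alone, A was above B by definition. It exceeded B by 1.29 to 15.7 times, with a median of 3.48. CG14265 was the most uneven, at 634 in 25 h A and 40.3 in 25 h B beside 624 and 583 at 6 h. CG32198 had 2312 and 157 beside 2448 and 1900.3 at 6 h. In both genes 25 h A was at the level of the 6 h libraries and 25 h B stood below both 15 h libraries. In this set 15 h B was below the 25 h mean in 24 of 24 genes, and the 35 h mean was under 10% of the 6 h mean in 20 of 24, against 5 of the 16 that passed in both libraries and 3 of the 8 that passed on B alone.

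The 8 genes that passed on 25 h B alone were CG9757, CG17190, CG32603, CG8012, CG30431, CG11073, CG42711 and CG9572. B exceeded A in them by 1.12 to 3.78 times with a median of 2.05. CG17190 showed the widest gap, with 275 in A and 1041 in B at 25 h. It began at 1118 and 1312 and had 1065 and 364 at 15 h. By 35 h it stood at 101 and 94.2, by 48 h at 46.1 and 30.4. CG8012 had 299 and 681 at 25 h beside 684 and 766 at 6 h and 749 and 429 at 15 h. For CG11073, now flap, the 25 h pair was 107 and 280.3 beside 289 and 378 at 6 h. In these 8 the order of the 25 h libraries was the reverse of that in the larger set. The way the sets were made fixed that order in both.

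The 15 h B library alone did not enter the choice of the genes, although the 6, 25 and 48 h values it is compared with did. It lay below both 6 h libraries and above both 48 h libraries in 44 of 48 genes, and within the 6 h pair in the other 4. A place between the 6 and 48 h pairs was found in 79.6% of the 54 genes with another symbol and 31.0% of the genes tested. The rule itself set the 6 and 48 h pairs at least 4 times apart. 15 h B was below the 25 h mean in 41 of 48 (85.4%). The same held for 42 of the 54 genes with another symbol that met the limits (77.8%) and for 50.7% of the genes tested. Against the separate 25 h libraries, 15 h B was below both in 23 genes (47.9%), between them in 20 (41.7%) and above both in 5 (10.4%). Over the genes tested these shares were 34.7%, 28.0% and 37.3%. Among the 54 genes with another symbol they were 57.4%, 24.1% and 18.5%. Being 1 library, 15 h B allows no test.

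The size of the 15 h B value varied widely. As a share of the 6 h mean it ran from 10.1% to 108% with a median of 41.4%, close to the 44.7% of 15 h A. It was under 50% of the 6 h mean in 29 of 48 genes (60.4%), against 23.2% of the genes tested. Among the 54 genes with another symbol, 64.8% were under 50%. The highest were CG44245 at 108%, CG32603 at 107% and CG14984 at 101%. The lowest were CG14265 at 10.1%, CG3999 at 10.7% and CG12926 at 12.2%. CG12926 was also where the 15 h libraries disagreed most plainly among these: 1347 in A and 136 in B, beside 1737 and 506 at 6 h. In 15 of the 48 genes (31.3%) both 15 h libraries were below both 25 h libraries. This was so in 17.5% of the genes tested and in 38.9% of the 54 genes with another symbol. CG15293, named after its values were seen, was one of the 15 genes. It had 42.4 and 265 at 15 h, between 883 and 1477 at 6 h and 1503 and 694 at 25 h.

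**Figure D4:**
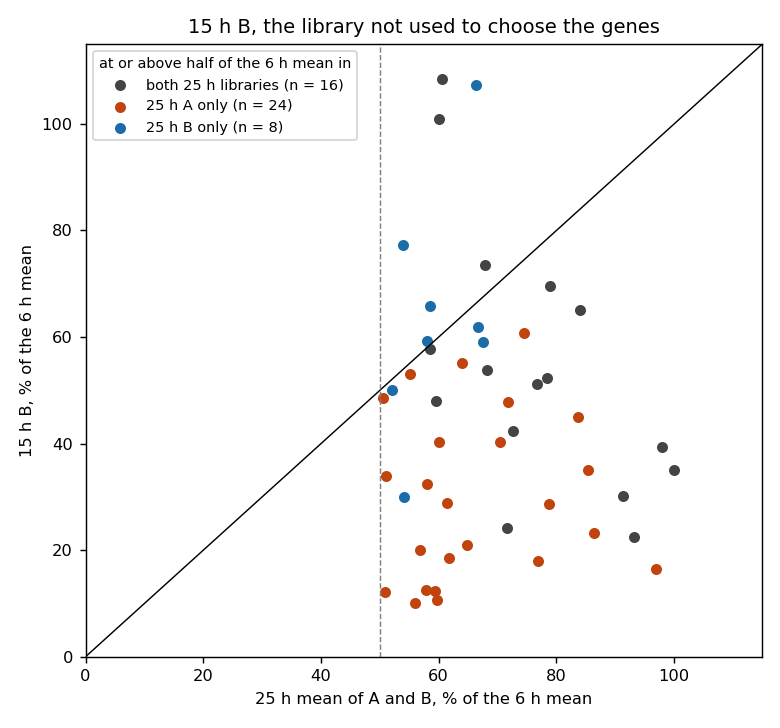
Signal in 15 h B (vertical) against the 25 h mean (horizontal), each as a percent of the 6 h mean, 1 point per gene; the black line marks equal values and the dashed line the 50% limit. The 41 genes under the black line were lower in 15 h B than at 25 h, and all 24 red ones are among them.

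The ratio of the 6 h to the 48 h mean spread over a wide range. Over the 43 genes with more than 3 reads in the 48 h libraries together it ran from 4.97 to 1360.1 with a median of 21.3. CG32198, a single-exon gene at 3L 18526976 to 18527445 (plus strand), had the highest of these. It measured 2448 and 1900.3 at 6 h and 2.01 and 1.19 at 48 h, and had already reached 24.2 and 2.58 at 35 h. CG32603 (X 14184561 to 14185807, plus strand), at 923 and 1090.2 at 6 h and 2.01 and 0.596 at 48 h, had a ratio of 774. Its 15 h B value, 1080.2, was still at the 6 h level, but 15 h A, at 515, was below both 6 h libraries. The 35 h values were 85.9 and 24.5.

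In 5 genes the 48 h libraries together held 3 reads or fewer. CG14265 had 1 read at 48 h against 1166 at 6 h, a ratio of 1931 after scaling with a counting interval of 346 to 76316 (95%, counting error only). CG43315 had 3, and CG14852 and CG6503 had 2 each. CG43153, which had 253 reads at 6 h, had 0 in both 48 h libraries, so its 6 h level was at least 140-fold higher, taking 3 reads over the 48 h pair as the limit that a count of 0 allows. Its reads at 35 h lay in B only, with a signal of 6.45.

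The fit across all genes (limma, Benjamini-Hochberg adjustment over the 10453 genes tested) was run for the size of the changes and for the background, since the rule used each of these contrasts. For 48 h against 6 h, 48 of the 48 genes passed as lower, where 26.8% of the 10453 genes tested did. From 6 to 25 h 2 passed as lower (8.01% of the genes tested), from 25 to 35 h 18 (3.09%), and from 35 to 48 h 2 (0.239%). Nothing about the genes is read from these counts. The 2 that passed from 6 to 25 h were CG14984, by -0.73 (log2, SE 0.20), and CG42711, by -0.92 (SE 0.24). Their 25 h libraries read 1022 and 1044 in CG14984 and 143 and 160.3 in CG42711. The 2 that passed from 35 to 48 h were CG9757, by -5.61 (SE 0.64), and CG34437, by -2.67 (SE 0.35). The spread that limma uses is shared over all times. When any single library was left out, the counts from 6 to 25, 25 to 35 and 35 to 48 h moved. Those over all genes moved too. The log2 median of the 48 genes from 25 to 35 h was -3.07 with all 10 libraries and without either 15 h library. It was -2.42 without 25 h A and -3.59 without 25 h B. From 6 to 25 h it was -0.69 with all libraries, -0.91 without 25 h A and -0.15 without 25 h B.

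CG9757 and CG34437 fell late. CG9757 measured 455 and 258 at 35 h, then 11.4 and 2.98 at 48 h, after 2123 and 1512 at 6 h. CG34437, listed as a serine protease homologue, measured 889 and 1382 at 6 h, 611 and 612 at 15 h, 866 and 684 at 25 h, 271 and 139 at 35 h, then 26.7 and 32.8 at 48 h. Each of its pairs from 25 h on was apart from the next. CG44215, a gene with 114 coding bases, kept 148 in 35 h A but 32.2 in 35 h B, beside 142 and 238 at 6 h, and had 1.34 and 2.98 at 48 h. Its 35 h mean, 47.4% of the 6 h mean, was the highest of the 48 and came mainly from 35 h A.

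Genes lay close to several limits of the rule. At 25 h CG6225 stood at 50.6% of its 6 h mean, CG12926 at 50.8% and CG32647 at 51.0%, while CG16779, at 49.9996%, CG11147, at 49.5%, and CG10863, at 49.1%, fell outside by that limit alone. At the other end CG13654 stood at 99.9%, CG8738 at 97.9% and CG14852 at 97.0%, and CG5162 was left out at 100.5%. The lower 6 h library was 4.19 times the higher 48 h library in CG13631, 4.29 times in CG1673 and 4.34 times in CG7016, and 3.94 times in the excluded CG30197. The 48 h mean was 98.7% of the 35 h mean in CG31689, 97.4% in CG16743 and 96.7% in CG12926, and 100.8% in the excluded CG1299. Replicate A at 15 h reached 97.8% of the higher 6 h library in CG8012 and 102% in the excluded CG9701. The weakest lower 6 h library was that of CG6503, at 82.2, and the nearest gene left out, CG34367, had 35.1.

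All 48 genes matched the Ensembl annotation as protein-coding. Their coding length had a median of 840 bases against 1107 for the 4339 protein-coding CG genes tested, and 17 of 48 (35.4%) were under 600 bases against 21.2%. In 12 (25%) every transcript had a single exon, against 14.8%. By chromosome arm, 18 were on 3R (37.5% against 25.7% of the CG genes tested), 9 each on 2L and 2R, 6 each on 3L and X, and none on chromosome 4. The closest pair was CG43125 and CG34437, on 3R with 20096 bases and 2 protein-coding genes between them, both listed as serine protease homologues. CG43125 measured 365 and 566 at 6 h, 82.2 and 163 at 15 h, 646 and 148 at 25 h, 32.2 and 15.5 at 35 h, then 23.4 and 20.3 at 48 h, so it dipped at 15 h and was uneven at 25 h where CG34437 was even. Another annotated gene overlapped 18 of the 48, on the same strand in 7; whether reads were counted by strand is not given in the sources used here.

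Of the 54 genes with another symbol that met the same limits, those nearest to the median course of the 48 over the 6, 25, 35 and 48 h means were Eaat1, a glutamate transporter, glob1, a globin, and Spat, a serine-pyruvate aminotransferase. Eaat1 (distance 0.22 on the log2 scale) measured 635 and 729 at 6 h, 86.0 and 65.6 at 15 h, 702 and 306 at 25 h, 29.5 and 63.2 at 35 h, then 21.4 and 38.1 at 48 h. It too was lower at 15 h than at 25 h and higher in 25 h A than in 25 h B. The 12 nearest also held Kaz1-ORFB, psh, a serine protease of the Toll pathway, Idgf2, a secreted growth factor, Fmo-1, Oamb, an octopamine receptor, alpha-Est8, nol, Pde1c and Nepl18. In 11 of these 12, all except Pde1c, 25 h A exceeded 25 h B. They were selected by the same limits and so share the course of the 6, 25, 35 and 48 h means by construction. At 15 h the rule set only an upper limit for A and none for B. In 15 h B their levels were 9.61% (Eaat1) to 63.3% (Pde1c) of the 6 h mean.

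Marker genes of other tissues moved between the same libraries. The 10 fat body genes, which include the larval serum proteins and lipid carriers, took 1.43% and 2.47% of the reads at 6 h in A and B, 0.632% and 2.05% at 15 h, 16.4% and 8.92% at 25 h, 0.504% and 0.648% at 35 h, then 0.222% and 0.513% at 48 h. The 48 genes together took 0.229% and 0.257% at 6 h, 0.0997% and 0.121% at 15 h, 0.175% and 0.130% at 25 h, 0.0526% and 0.0449% at 35 h, then 0.0223% and 0.0211% at 48 h. Both shares were higher in 25 h A than in 25 h B and higher at 25 h than at 35 h. The summed fat body share was higher at 25 h than at 6 h, and that of the 48 genes was lower. The genes of the list differed. From 6 to 25 h, 6 of 10 passed as higher and 0 as lower (limma). The means of Apoltp (23331 to 9467) and FASN1 (159962 to 126804) fell over that step. Unlike the rest of the list, Fbp1 and Fbp2 were higher in 25 h B (17567 and 134467) than in 25 h A (1748 and 64684). No gene of the fat body list was at 0 in any library. FASN1, the fatty acid synthase, is on the fat body list and also met the limits, at 118399 and 201526 at 6 h, 113315 and 63538 at 15 h, 208796 and 44813 at 25 h, 7586 and 8833 at 35 h, then 2876 and 3199 at 48 h. Whether fat body RNA contributed to the course of the 48 genes was not tested.

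**Figure D5:**
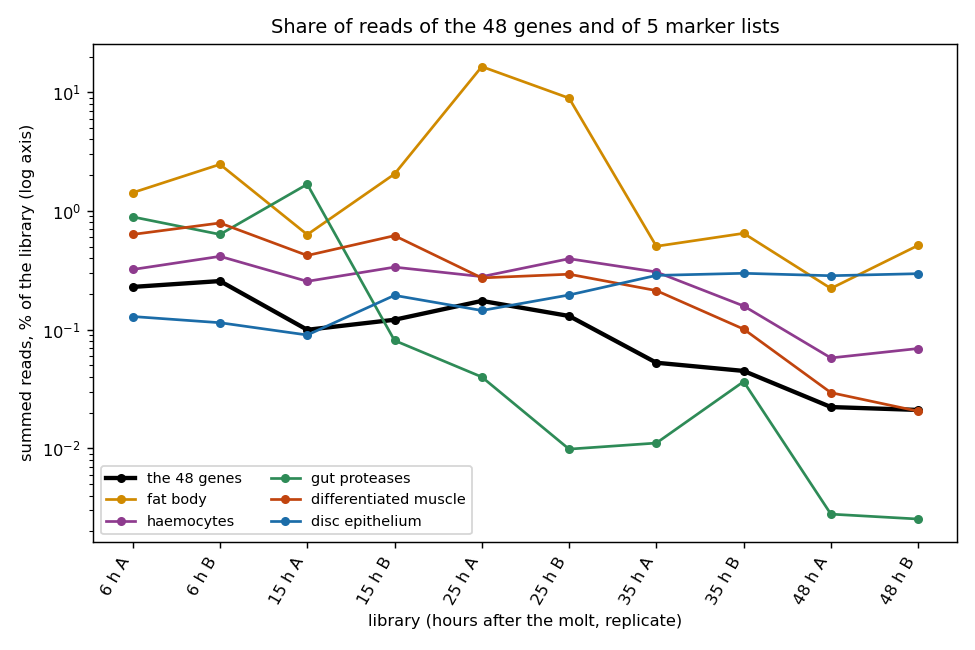
Summed reads of the 48 genes (thick black line) and of 5 marker lists as a percent of all gene reads on a log axis, in the 10 libraries in order of time. The fat body list is highest in the 25 h libraries at 16.4% and 8.92%, the gut protease list highest in 15 h A at 1.68%, and the disc epithelium list lies between 0.0901% and 0.298% throughout.

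Other lists also changed. The gut protease genes, trypsins and their relatives of the digestive tract, took 0.891% and 0.634% at 6 h, 1.68% and 0.0810% at 15 h and 0.0399% or less from 25 h on, and 21 of the 23 tested passed as lower at 48 h than at 6 h; 2 of the list were at 0 in both libraries of a time. Their share differed between 15 h A and 15 h B far more than that of the 48 genes did. The 11 haemocyte genes went from 0.321% and 0.414% at 6 h to 0.0577% and 0.0693% at 48 h, with 8 of 11 called lower and 1 higher, and Hml and Pxn met the same limits as the 48 genes. Only 5 of the 15 differentiated muscle symbols on the list were found. All 5 were tested and lower, among them TpnC73F, a troponin C that met the limits. Fat body genes split into 4 lower and 3 higher. The part of these cells in the course of the 48 genes was not tested.

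The disc's own markers were present in every library. The 10 disc epithelium genes took 0.129% and 0.114% at 6 h and 0.285% and 0.296% at 48 h, and 8 of 10 passed as higher, a log2 median of 0.95 beside -0.10 over all genes tested. Among the lists of processes, 25 of 25 respiratory chain genes were lower at 48 h than at 6 h (log2 median -1.52), 8 of 9 glycolysis genes (-1.45) and 16 of 18 ribosome assembly genes (-0.97). Of these only Ldh, lactate dehydrogenase, met the limits of the 48 genes. Of 5 early temporal factors tested 3 were lower and 1 higher, and chinmo, a zinc finger factor that marks young larval tissue, met the limits as well; of 4 late temporal factors 3 were higher. In 3 more lists the calls at 48 h against 6 h were 2 of 3 higher for adult muscle precursors, 5 higher and 3 lower of 10 for trachea, and 6 of 7 higher for salivary gland glue. Of 8 neuronal genes 4 were lower, of 6 glial genes 2, and of 2 larval cuticle genes 2. The adult muscle precursor list had 7 symbols, of which 3 were found, and the larval cuticle list 14, of which 2 were found. With other scalings of the libraries 5 (common median) and 11 (quantile normalization) of the 18 ribosome assembly genes passed as lower. Of the trachea genes 0 (common median) and 1 (quantile normalization) then passed as lower, and of the neuronal genes 4 and 1. The median of the glial list went from -1.48 to 0.08 under quantile normalization; no other list's median changed sign under either scaling.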

How the data were processed

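Gene expression was measured by RNA-seq in 10 wing disc libraries. The molecule is labelled polyA RNA, but the quoted kit protocol is for strand-specific total RNA libraries after removal of ribosomal RNA. Per the submitters' processing notes, STAR 2.7.10a and featureCounts (no version given) were used, and the genome was dm6 (BDGP6); how strand was treated in counting and which tool scaled the counts are not given in the sources used here. The deposited table holds a signal per gene and library, which the authors made by dividing counts by 1 size factor per library. Dividing each library by the signal of 1 read gave whole reads, to within 0.001, in 100% of cases. No column was left unmapped (0).

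The 48 genes and all 16 gene lists were chosen with earlier results of these data known. limma 3.58.1 (intensity trend) was fitted to log2(signal + 1) of the 10453 genes whose signal reached 10 in 2 or more libraries, with 1 mean per time, two-sided, Benjamini-Hochberg adjusted, at a threshold of 0.05; adding 1 understates the changes of weakly expressed genes. It was tested on simulated data first. edgeR 4.0.16 (quasi-likelihood, TMM) and DESeq2 1.42.0 on the recovered reads, other scalings, a pseudocount of 10, no filter, a block for the replicate letter and leaving out each library were the alternatives. The members named were those with the 10 highest 6 h means, the 5 largest and 5 smallest ratios of 6 h to 48 h, the 3 highest and 3 lowest in 15 h B, those with a name in the reference and those nearest a limit, plus the 12 nearest genes with another symbol; other members named were chosen after their values were seen. Ratios of counts carry 95% intervals that cover counting error only. Coordinates and gene types are from Ensembl BDGP6.54 (dm6), names also from the RefSeq gene table. Sequences were not used here.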

Additional observations from a re-analysis of the deposited data

How the results depend on the processing

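The number of genes that met the rule, 48, was 36 to 58 with a fold limit of 6 or 3 and with a 6 h minimum of 20 or 100, 44 with all libraries set to a common median (38 of them shared) and 43 with libraries scaled by total reads (35 shared). It was 14 with a 25 h limit of 0.75, 85 with no condition on 15 h A and 84 with 15 h B in its place. Leaving out 1 library at a time, the other standing for both, gave 40 (without 25 h B) to 85 (without 15 h A); 23 genes were shared with the 48 without 25 h A, and 23 without 25 h B. Among alternatives chosen after seeing the data, 16 genes met the 25 h limit in each library, and 48 remained when neither 15 h library was allowed above the higher 6 h library. The 41 genes with 15 h B below the 25 h mean were 37 on the common median and 35 with libraries scaled by total reads; chosen after seeing the data, 29 were below 25 h B alone, 37 below 25 h A alone, and 35 with 15 h A in place of 15 h B.

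For 48 h against 6 h the count over all genes was 5130, and 43 (quantile normalization) to 48 of the 48 genes passed as lower under the alternatives run; leaving out 1 library gave 2499 to 7169 genes. For the other comparisons the counts moved with most settings, in the order 25 h against 6 h, 35 h against 25 h and 48 h against 35 h. limma called 1770, 412 and 41 genes, with 2, 18 and 2 of the 48 lower. Quantile normalization gave 994, 133 and 1 genes (1, 5 and 0 of the 48), and the common median 795, 264 and 21 (0, 11 and 1). edgeR on the recovered reads gave 962, 151 and 10 (0, 5 and 0), and DESeq2 2994, 1246 and 569 (5, 41 and 13). With no filter on low values 0 of the 48 passed at 25 h against 6 h, and with a pseudocount of 10, 1 passed at 48 h against 35 h. Leaving out 1 library gave 300 to 5090, 0 to 2479 and 0 to 1045 genes, with 0 to 5, 0 to 41 and 0 to 10 of the 48; the upper values came without a 15 h library. The cause of these differences was not tested.

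A replicate block, with the replicate letter as a term, gave 1587, 240, 2 and 4996 genes for the 4 comparisons and 0, 9, 0 and 48 of the 48. The labels do not say whether the letters pair the libraries across times. The correlation of A minus B between 2 times across genes was -0.06 to 0.16, which cannot decide it. Under quantile normalization the median of all genes at 48 h against 6 h moved from -0.10 to 0.33 (log2) and the share of calls that were lower from 54.5% to 33.5%; on the common median these were 0.22 and 41.5%. Against those medians the 48 genes still had a log2 median of -3.54 and -4.25.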
